A study of Mus musculus with 2 samples.

Results

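The mitochondrial ribosome, or mitoribosome, was followed through the genes of its large and small subunits. Members were the gene rows whose symbol begins with Mrpl and a digit, for the large subunit, or Mrps and a digit, for the small subunit. The rule found 76 of 31252 gene rows, of which 47 were Mrpl and 29 were Mrps genes, and all 76 were among the 15246 genes that averaged 10 counts or more over the libraries. The study asked how overexpression of the nuclear receptor COUP-TFII, encoded by Nr2f2, changes dopaminergic neurons of the mouse. RNA came from the ventral midbrain, which holds the substantia nigra and the ventral tegmental area, of mice aged 2 months on an incipient congenic C57BL/6 background, with 1 library per group. The library labelled OE came from the genotype Slc6a3-Cre; CAG-S-COUP-TFII and the library labelled Ctrl from Slc6a3-Cre, so both groups carried Cre driven by the dopamine transporter gene, which limits recombination to cells that use this gene. By the methods, Ctrl and OE littermates came from a cross whose mothers were homozygous for a floxed Tfam allele and a ROSA26 tdTomato reporter. Every littermate of that cross therefore carries at least 1 floxed Tfam allele and the reporter, and mice of both sexes were used. The genotypes given for the libraries name neither allele. The sources used here do not say outright that these libraries came from that cross, or whether tissue was pooled. An expression display in the study shows more animals per group than there are libraries here, so what each library stands for is not certain.

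The mitoribosome translates the messenger RNAs of the mitochondrial genome, which encode core subunits of the respiratory chain and of ATP synthase. Its ribosomal RNAs are mitochondrial, whereas all its proteins are encoded in the nucleus, made in the cytosol and imported. The small subunit reads the messenger RNA, and the large subunit joins amino acids and releases the chain through an exit tunnel next to the inner membrane. Part of the proteins descend from bacterial ribosomal proteins and the others are specific to mitochondria. Neurons with long axons, such as dopaminergic neurons of the substantia nigra, depend heavily on respiration. Gene symbols do not always give the place of a protein: the proteins of Mrps18a and Mrps30 sit in the large subunit, and that of Mrps36 is now placed in the 2-oxoglutarate dehydrogenase complex. These 3 genes are counted by symbol here.

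Total counts were 16984336 for the library labelled Ctrl and 21326632 for that labelled OE. Nr2f2, the targeted gene, had 637 counts in the library labelled Ctrl, against 377 in that labelled OE. Its log2 fold change was -1.07 (interval -1.26 to -0.88), so it goes against the labels, and every direction below is that of the labels. Whether the labels were exchanged is not known, and if they were, every sign below would turn. The study measured its rise of COUP-TFII mRNA in isolated dopaminergic neurons, whereas these counts come from all cells of the tissue. Cell markers, given below, also differed between the libraries, so the value of Nr2f2 cannot decide whether the labels are right. Fold changes are labelled OE over labelled Ctrl, on counts scaled by TMM with a pseudocount of 0.5 added, and paired values are given with the library labelled Ctrl first. Each interval is the 95% exact Clopper-Pearson interval for how 2 counts divide, which covers counting error only and compares 2 libraries, not genotypes. The tissue is labelled as dopaminergic neurons, but 12 oligodendrocyte markers summed to 21221 CPM under the label Ctrl and 17549 CPM under the label OE, and 9 of them were lower by more than log2 0.2. The 16 dopaminergic markers summed to 1595 CPM and 3699 CPM, and all 16 were higher under the label OE (median log2 fold change 1.30). The 11 thalamic markers summed to 1517 CPM and 989 CPM, and 10 of them were lower by more than log2 0.2, with Gbx2 at 0 counts in the library labelled OE. Astrocyte markers summed to 3263 CPM and 2938 CPM (1 of 8 lower by that much), and microglial markers to 323 CPM and 263 CPM (3 of 8 lower). General neuronal markers summed to 6121 CPM and 6674 CPM (3 of 8 higher and 1 lower). These marker levels moved with the labels, and their part in the values of the mitoribosome was not tested. In bulk tissue, fewer cells of a type and less RNA per cell cannot be told apart.

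Letters shared by the starts of these genes were sought in RefSeq promoters of build GRCm38.p6, from 250 bases before to 50 bases after the start. A promoter entry was found for 67 of the 76 members. On both strands, 5 motifs were searched: CCGGAAG of ETS factors, the core GCGCATGC of the factor NRF1, which drives many nuclear genes for mitochondrial proteins, AAGATGGC of the factor YY1, the half-site AGGTCA of nuclear receptors such as COUP-TFII, and its direct repeat with 1 base between. The ETS letters stood in 24 of 67 member promoters (35.8%), in 17.9% of 10903 tested genes and in 9.93% of all 27025 genes with a promoter. The YY1 letters stood in 12 member promoters (17.9%), against 4.77% of tested genes and 3.19% of all genes. The NRF1 core stood in 8 (11.9%), against 5.71% and 3.05%. It was found in 7 of 41 large subunit promoters and in 1 of 26 small subunit promoters. The half-site stood in 10 member promoters (14.9%), close to its share of tested genes, 14.8%, and below that of all genes, 18.1%. The direct repeat was in none of the 67, and in 0.037% of tested genes. A match is a description of letters and not a bound site.

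The YY1 letters are shown because 8 of the 12 member matches lay just after the start, from 11 to 36 bases downstream, and all 8 read along the strand of the gene. Among tested genes, 50.4% of the matches lay downstream of the start and 83.8% of those read along the gene. The 8 windows of 30 bases follow in order of that distance, 5′ to 3′ on the strand of the gene, with the YY1 letters in capitals.
Mrps18a: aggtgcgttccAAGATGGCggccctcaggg
Mrps27: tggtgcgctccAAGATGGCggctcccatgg
Mrpl49: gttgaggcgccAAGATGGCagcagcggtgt
Mrps7: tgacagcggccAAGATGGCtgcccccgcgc
Mrpl35: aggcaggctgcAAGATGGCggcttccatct
Mrpl37: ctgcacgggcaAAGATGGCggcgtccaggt
Mrpl42: cagattgaagcAAGATGGCgagcgcgcggt
Mrps24: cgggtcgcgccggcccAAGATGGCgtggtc
In 6 of the 8 windows the ATG within the capitals is the annotated first codon of the principal transcript, and Mrpl37 and Mrpl42 are the exceptions. The windows lie, in the same order and in GRCm38.p6, with Mrps18a at chr17:46111004-46111033 on the plus strand, Mrps27 at chr13:99344789-99344818 on the plus strand, Mrpl49 at chr19:6057721-6057750 on the minus strand, Mrps7 at chr11:115604147-115604176 on the plus strand, Mrpl35 at chr6:71823743-71823772 on the minus strand, Mrpl37 at chr4:107066822-107066851 on the minus strand, Mrpl42 at chr10:95501904-95501933 on the minus strand and Mrps24 at chr11:5707652-5707681 on the minus strand. These members had log2 fold changes from 0.00 for Mrps27 to 0.30 for Mrps24.

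The 250 bases before the start are shown for 2 members with a high and 2 with a low log2 fold change. Capitals mark the ETS letters in Mrpl34 and the half-site, or its reverse complement, in Mrps15 and Mrps30. None of the 5 motifs was found in Mrpl14.
Mrpl34: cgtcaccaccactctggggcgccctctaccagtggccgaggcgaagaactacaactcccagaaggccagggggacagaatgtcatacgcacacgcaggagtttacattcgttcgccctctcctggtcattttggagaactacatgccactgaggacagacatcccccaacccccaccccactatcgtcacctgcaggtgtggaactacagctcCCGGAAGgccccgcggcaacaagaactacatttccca
Mrpl14: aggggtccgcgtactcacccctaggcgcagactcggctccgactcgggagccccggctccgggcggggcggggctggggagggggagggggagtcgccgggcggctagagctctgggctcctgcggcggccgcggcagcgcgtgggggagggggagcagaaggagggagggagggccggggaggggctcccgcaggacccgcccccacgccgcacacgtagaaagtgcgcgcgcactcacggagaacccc
Mrps15: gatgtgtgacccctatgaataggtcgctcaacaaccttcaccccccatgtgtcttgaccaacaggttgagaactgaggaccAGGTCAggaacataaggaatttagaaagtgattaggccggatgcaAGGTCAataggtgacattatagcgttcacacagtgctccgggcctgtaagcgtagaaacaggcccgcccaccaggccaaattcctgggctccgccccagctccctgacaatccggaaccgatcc
Mrps30: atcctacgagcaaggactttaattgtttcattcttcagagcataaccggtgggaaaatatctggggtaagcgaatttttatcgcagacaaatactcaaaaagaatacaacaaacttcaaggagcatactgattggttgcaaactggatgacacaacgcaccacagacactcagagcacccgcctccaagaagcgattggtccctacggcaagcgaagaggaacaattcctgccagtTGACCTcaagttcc
In GRCm38.p6 they lie at chr8:71464676-71464925 on the plus strand for Mrpl34, chr17:45686099-45686348 on the plus strand for Mrpl14, chr4:126046678-126046927 on the plus strand for Mrps15 and chr13:118387253-118387502 on the minus strand for Mrps30. The ETS letters begin 37 bases before the start of Mrpl34. The half-sites begin 169 and 124 bases before the start of Mrps15 and 14 bases before that of Mrps30. Over the 67 members, the median log2 fold change was 0.12 with the ETS letters and 0.11 without, and 0.08 with the half-site and 0.13 without. It was 0.08 with the NRF1 core and 0.13 without, and 0.11 with the YY1 letters and 0.13 without.

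By the labels, most members were slightly higher under the label OE. A log2 fold change above 0.2 was found for 22 of 76 members (28.9%), where 17.9% of all tested genes lay above it, and for 0 of 76 below -0.2, where 16.6% of all tested genes lay. The interval was above 0 for 27 members, against 15.9% of all tested genes, and below 0 for 0 members, against 14.4%. The sign was positive for 69 members and negative for 7, where 51.1% of all tested genes were positive and 48.9% negative. Their median log2 fold change was 0.11 and their range -0.14 to 0.57, while the median of all tested genes was 0.0047. If the labels were exchanged, 22 of the 76 members would lie below -0.2 and 0 above 0.2 in the overexpressing library. The counting interval of a typical member reached 0.20 to either side of its value.

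**Figure D1:**
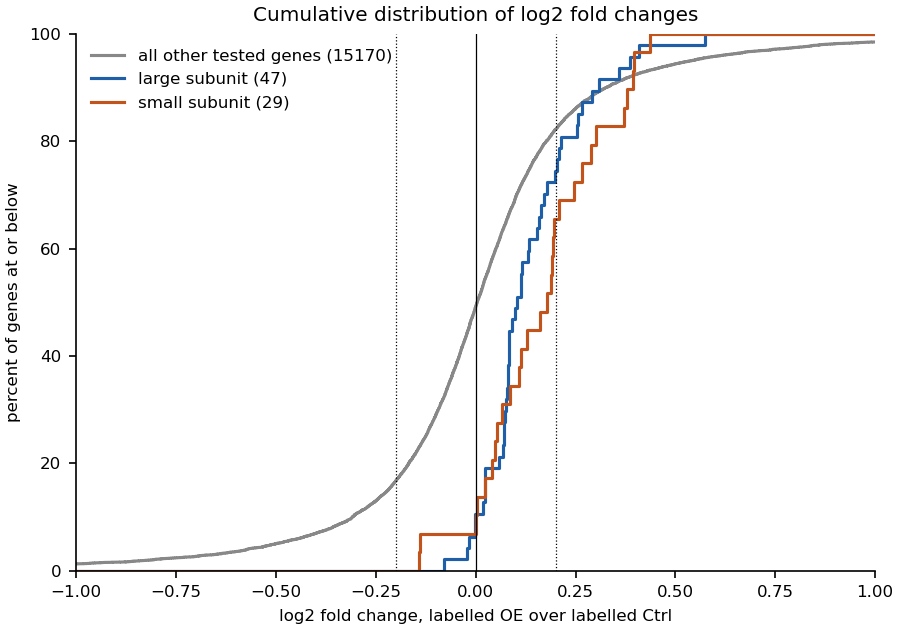
Cumulative percent of genes (vertical axis) at or below each log2 fold change of the library labelled OE over that labelled Ctrl (horizontal axis, from -1 to 1), for 47 large subunit genes, 29 small subunit genes and 15170 other tested genes; dotted lines mark log2 0.2 either way. Both subunit curves lie to the right of the other genes around 0 and are narrower, and neither reaches -0.2. The other genes include genes with fewer counts than any member.

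The subunits were then compared with each other. Of the 47 Mrpl genes, 12 (25.5%) were above log2 0.2, 14 had an interval above 0 and 42 were positive. Of the 29 Mrps genes, 10 (34.5%) were above log2 0.2, 13 had an interval above 0 and 27 were positive. For all tested genes these shares were 17.9%, 15.9% and 51.1%. The median log2 fold change was 0.10 in the large subunit (quartiles 0.07 and 0.20) and 0.18 in the small subunit (quartiles 0.05 and 0.27), a difference of -0.08 for large minus small. The means, 0.14 and 0.17, differed by -0.03. The spread between members was an SD of 0.13 (n = 47) and 0.15 (n = 29). The counting error of single members averaged 0.10 and 0.11 (root mean square, log2), which is much of that spread. The interval held the median of its own subunit in 42 of 47 and in 25 of 29 members.

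**Figure D2:**
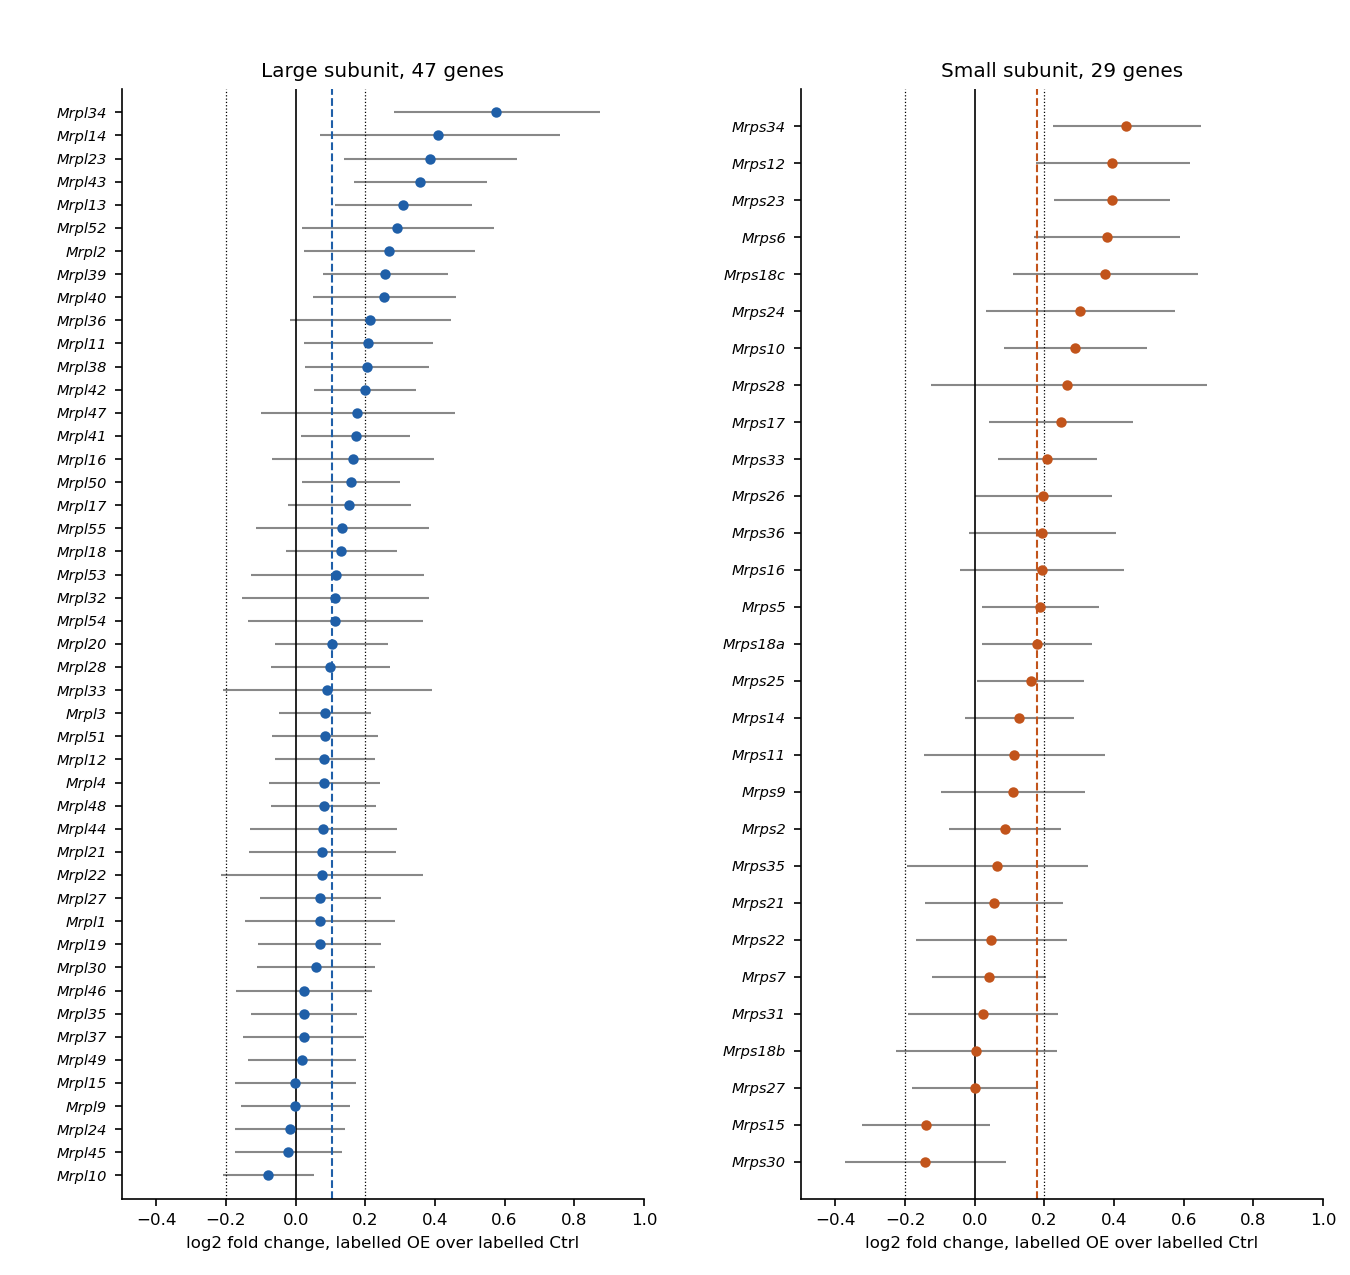
Log2 fold change of the library labelled OE over that labelled Ctrl (horizontal axes), of each member of the large (left) and small (right) subunit; points are values, bars are 95% counting intervals, the dashed line is the median of the subunit and dotted lines mark log2 0.2 either way. Most points lie between 0 and 0.4, the highest is Mrpl34 at 0.57, and no interval lies wholly below 0.

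As a share of the total counts, the summed counts of both subunits were higher under the label OE. The large subunit took 0.120% of the counts in the library labelled Ctrl (interval 0.118 to 0.121) and 0.128% in the library labelled OE (0.127 to 0.130). The small subunit took 0.0631% (0.0620 to 0.0644) and 0.0698% (0.0687 to 0.0710). The intervals of the libraries did not overlap for either subunit, but they cover counting error only, which is small for summed counts. They compare 2 libraries, not genotypes. Of the members' counts, the large subunit held 65.5% under the label Ctrl and 64.7% under the label OE.

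Among Mrpl genes, the 5 highest log2 fold changes were those of Mrpl34, Mrpl14, Mrpl23, Mrpl43 and Mrpl13. Mrpl34, whose gene spans chr8:71464959-71465747 on the plus strand in GENCODE M21, encodes a small protein of bacterial descent. This gene had 148 counts in the library labelled Ctrl, against 274 in that labelled OE (0.57, interval 0.28 to 0.87). Mrpl14, at the face that meets the small subunit, had 115 and 190 counts (0.41, interval 0.07 to 0.76). They had the fewest counts of the 5 and the widest intervals. Mrpl23, at the rim of the exit tunnel, had 218 and 354 counts (0.39, interval 0.14 to 0.64). Mrpl43, specific to mitochondria, had 371 and 591 counts (0.36, interval 0.17 to 0.55), and Mrpl13, of bacterial descent, 354 and 545 (0.31, interval 0.11 to 0.51). All 5 intervals lay above 0.

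The 5 lowest Mrpl genes were Mrpl10, Mrpl45, Mrpl24, Mrpl9 and Mrpl15. Mrpl10, which anchors the stalk where translation factors bind, had 888 counts in the library labelled Ctrl, against 1045 in that labelled OE (-0.08, interval -0.21 to 0.05). Mrpl45, which ties the tunnel exit to the inner membrane, had 630 and 771 counts (-0.02). Mrpl24, also at the tunnel exit, had 603 and 741 counts (-0.02). Mrpl9 with 609 and 756 counts and Mrpl15 with 496 and 616 counts, both of bacterial descent, lay at 0.00 after rounding, and both turned to 0.01 with upper quartile scaling. All 5 intervals held 0.

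Among Mrps genes, the 5 highest were Mrps34, Mrps12, Mrps23, Mrps6 and Mrps18c. Mrps34, specific to mitochondria, had 294 estimated counts in the library labelled Ctrl, against 494 in that labelled OE (0.44, interval 0.22 to 0.65). It overlaps Nme3 on the same strand, a nucleoside diphosphate kinase gene that had 155 and 252 estimated counts (0.39), and the counts of both were not whole, so reads were shared between transcripts. Mrps12, a protein of the decoding centre, had 271 and 443 counts (0.40, interval 0.17 to 0.62). Mrps23, specific to mitochondria, had 477 and 779 counts (0.39, interval 0.23 to 0.56). Mrps6 and Mrps18c, whose bacterial counterparts bind next to each other on the platform, had 307 and 496 estimated counts (0.38, interval 0.17 to 0.59) and 192 and 309 counts (0.37, interval 0.11 to 0.64). Mrps6 shares its locus with the inositol transporter gene Slc5a3, which had 1134 and 1412 estimated counts (0.0027). The intervals of all 5 lay above 0.

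At the other end were Mrps30, Mrps15, Mrps27, Mrps18b and Mrps31. Mrps30, of the large subunit by structure, had 295 counts in the library labelled Ctrl, against 332 in that labelled OE (-0.14, interval -0.37 to 0.09). Mrps15, of bacterial descent, had 460 and 519 counts (-0.14, interval -0.32 to 0.05). Mrps27, an RNA-binding pentatricopeptide repeat protein, had 456 and 567 counts (0.00). Mrps18b had 281 and 350 counts (0.00) and Mrps31, of the head of the subunit, 324 and 409 (0.02). With scaling by total counts Mrps27 and Mrps18b both turned to -0.01. The intervals of all 5 held 0.

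Mrps18a, Mrps18b and Mrps18c are paralogs that descend from 1 bacterial protein and sit at different places of the mitoribosome. Mrps18c, on the platform, was at 0.37 and Mrps18b at 0.00, and their intervals overlapped (0.11 to 0.64 and -0.23 to 0.24). Mrps18a, in the large subunit, had 563 and 792 counts (0.18, interval 0.02 to 0.34). The study designed primers for 4 members, which it may have picked from these libraries, so their values are a description. Of these, Mrpl34 is given above, Mrps33, of the head, had 695 and 998 counts (0.21, interval 0.07 to 0.35), and Mrps36 had 316 and 449 (0.19, interval -0.02 to 0.41). Mrpl4, near the tunnel wall, had 569 and 748 counts (0.08, interval -0.08 to 0.24). Thus Mrpl34 and Mrps33 were past log2 0.2, and Mrps36 and Mrpl4 were not. For Mrps33 and Mrps36 this depended on the scaling. Mrps33 was at 0.19 with scaling by total counts, and Mrps36 at 0.21 with the upper quartile.

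**Figure D3:**
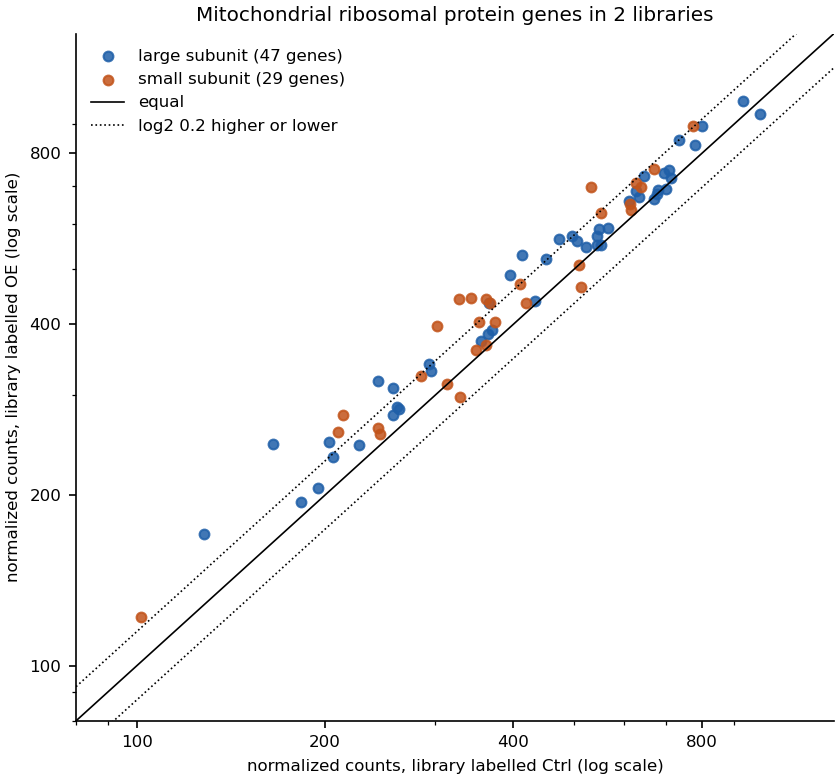
Normalized counts of the 76 members in the library labelled Ctrl (horizontal axis) and the library labelled OE (vertical axis), both on log scales, with large subunit genes in blue and small subunit genes in orange; the solid line marks equal values and dotted lines log2 0.2 either way. The points follow the line over the whole range, mostly just above it, and none lies below the lower dotted line.

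Within the ribosome, some members were grouped by place. The place lists were written from general knowledge and leave out many members, also of the body of the small subunit, so they do not stand for whole regions. In the stalk, the arm that recruits translation factors, 4 of 5 members were positive and 1, Mrpl11, was above log2 0.2 with 404 and 580 counts (median of the group 0.11). Mrpl12, the stalk protein that also binds the mitochondrial RNA polymerase, had 700 and 921 counts (0.08, interval -0.06 to 0.23). At the exit tunnel, 4 of 6 were positive and Mrpl23 alone was above log2 0.2 (median 0.11). Of all tested genes, 51.1% were positive and 17.9% were above log2 0.2. The 1 of 5 in the stalk and 1 of 6 at the exit tunnel were close to the 17.9%. These counts therefore do not set either place apart from all tested genes. In the central protuberance, which faces the head of the small subunit, all 7 were positive and 2, Mrpl38 and Mrpl40, were above log2 0.2 (median 0.13). In the head of the small subunit all 7 were positive and Mrps10 and Mrps33 were above it (median 0.11). In the platform and body, 7 of 8 were positive, 4 were above it and the exception in sign was Mrps15 (median 0.22).

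By descent, 48 members have bacterial counterparts and 28 are specific to mitochondria. Above log2 0.2 were 14 of the 48 (29.2%) and 8 of the 28 (28.6%), with medians of 0.11 and 0.14. The interval was above 0 for 14 of the 48 (29.2%) and 13 of the 28 (46.4%). In the large subunit the medians were 0.10 for 30 genes of bacterial descent and 0.12 for 17 others. In the small subunit they were 0.18 for 18 and 0.16 for 11.

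Levels between members were compared per length, as normalized counts per kb of the principal transcript averaged over both libraries. They ran from 60.3 for Mrps35 to 1186 for Mrpl42, a ratio of 19.7, although most of these proteins occur in 1 copy per ribosome. The median was 343 in the large and 291 in the small subunit, with quartiles of 237 to 470 and 143 to 420. The highest large subunit genes were Mrpl42 with 1186, Mrpl41 with 886 and Mrpl20 with 832, and the lowest were Mrpl47 with 65.3, Mrpl17 with 73.1 and Mrpl32 with 78.2. In the small subunit Mrps21 with 875, Mrps18a with 757 and Mrps33 with 754 were highest, and Mrps35 with 60.3, Mrps17 with 79.2 and Mrps30 with 94.4 lowest. The low levels of several members belong to long transcript models. For 9 members a shorter model with the same coding length exists, and with it Mrps17 went from 79.2 to 482 and Mrpl30 from 598 to 987, while no other member moved by over 1.5 times. Across the 76 members the levels of the libraries were nearly the same, with a Pearson correlation of 0.98 on the log2 scale (n = 76 genes of the same libraries, a description).

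Members have short transcripts, and short transcripts as a group had higher fold changes. The median transcript was 1284 bases, and 51 of 76 members lay in the shortest of 5 equal classes of the 13874 tested genes with a length, from 54 to 1793 bases. In that class, 26.9% of other genes were above log2 0.2, with a median of 0.07, and 19 of the 51 members, with a median of 0.13. In the longest class, from 5020 bases on, 10.3% of other genes were above it, and 1 of 3 members, Mrps17. The class of Mrps17 depends on its transcript model, since a model of 832 bases with the same coding length would lie in the shortest class. In the classes between, the values of other genes were 19.0%, 15.9% and 12.9%, and 1 of 7, 1 of 7 and 0 of 8 members were above it. Spearman's rho of log2 fold change with length was -0.33 over the members and -0.18 over all genes with a length, and over the members it was -0.31 with mean counts and 0.22 with GC content of the transcript. These are correlations across genes that share libraries, and the part of length in the values of the members was not tested.

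**Figure D4:**
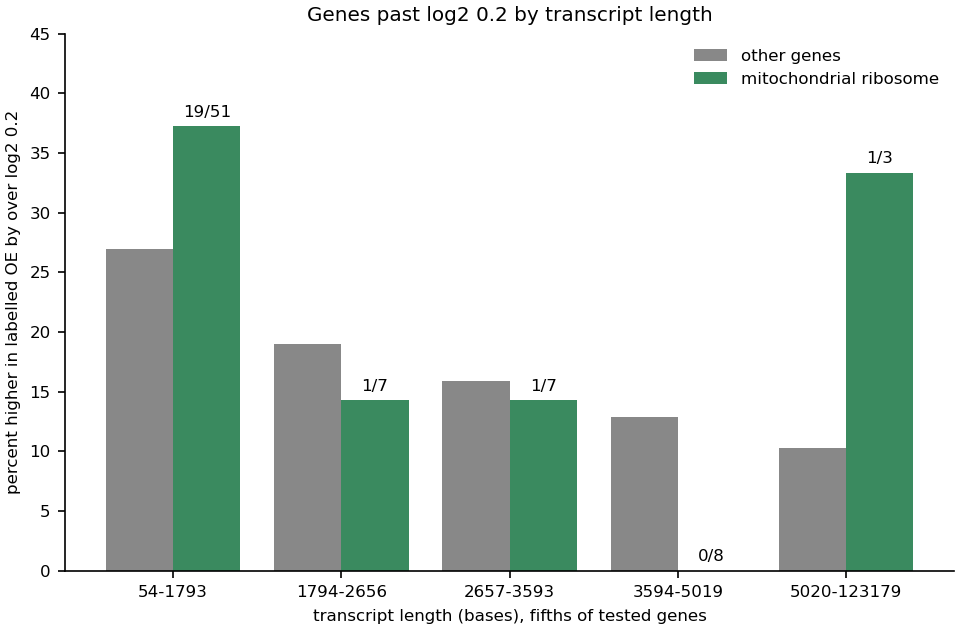
Percent of genes above log2 0.2, labelled OE over labelled Ctrl (vertical axis), in 5 equal classes of transcript length in bases (horizontal axis), for other tested genes (grey) and members (green, with the number above the threshold over the number of members). The grey bars fall from 26.9% to 10.3%, and 51 of the 76 members sit in the shortest class.

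The other genes of mitochondrial translation gave a mixed picture. The 7 mitoribosomal proteins under other symbols were all positive (median 0.17), beside 51.1% of all tested genes. Of these 7, 3 (42.9%) were above log2 0.2, beside 17.9% of all tested genes. The highest was Gadd45gip1 with 321 and 543 counts (0.44, interval 0.24 to 0.65), and Mrp63, an older symbol of Mrpl57, had 208 and 327 counts (0.34). Dap3, a GTP-binding protein of the small subunit, had 1033 and 1442 counts (0.17, interval 0.05 to 0.28), and the lowest was Ict1, the release factor Mrpl58 that became part of the large subunit, with 349 and 454 counts (0.07).

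Of 22 assembly factors, 5 (22.7%) were above log2 0.2 and 2 (9.1%) below -0.2, and the median was 0.04. The shares of all tested genes were 17.9% above and 16.6% below, so the share of assembly factors above was near that of all genes. Noa1, a GTPase needed for the small subunit, had 225 and 370 counts (0.40, interval 0.16 to 0.65). Eral1, a chaperone of the small subunit ribosomal RNA, had 315 and 331 (-0.24, interval -0.47 to -0.01), so the extremes of this list both act on the small subunit. Of 15 translation factors, 5 (33.3%) were above 0.2 and 0 below -0.2, with a median of 0.13. Slirp and Lrpprc, which together stabilise mitochondrial messenger RNA, had 363 and 585 counts (0.37, interval 0.18 to 0.57) and 1734 and 2500 counts (0.21, interval 0.13 to 0.30). The initiation factor Mtif2 was lowest with 527 and 632 estimated counts (-0.05). Of 17 mitochondrial tRNA synthetases, 1 (5.9%) was above 0.2 and 2 (11.8%) below -0.2, and the median was 0.05. The highest was Pars2 with 85 and 126 counts (0.25, interval -0.15 to 0.67) and the lowest Fars2 with 181 and 193 (-0.22, interval -0.52 to 0.08).

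**Figure D5:**
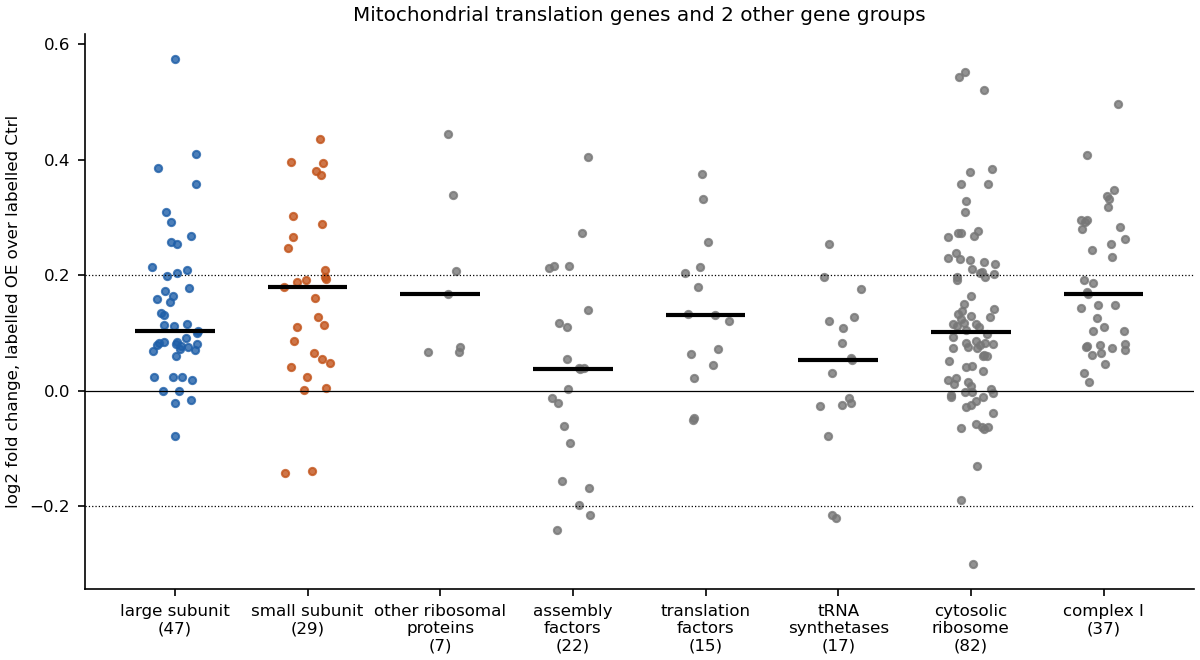
Log2 fold change of the library labelled OE over that labelled Ctrl (vertical axis), of each gene in 8 groups (horizontal axis, number of tested genes in brackets); bars are medians and dotted lines mark log2 0.2 either way. Medians run from 0.04 for assembly factors to 0.18 for the small subunit, and the groups overlap widely.

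Ribosomes of the cytosol and respiratory complex I were set beside the members to show where these differ. Of 82 tested cytosolic ribosomal protein genes, 24 (29.3%) were above log2 0.2 and 1 below -0.2, with a median of 0.10 that equals the one of the large subunit after rounding. Of 37 complex I genes, 15 (40.5%) were above 0.2 and 0 below, with a median of 0.17, next to the 0.18 of the small subunit. These genes were chosen by symbol, Nduf with a, b, c, s or v and a number, and not by place in the complex. The shares of members above 0.2, 25.5% and 34.5% by subunit, fell on either side of the share of the cytosolic ribosome. The products of mitochondrial translation are seen here only through 3 rows of mitochondrially encoded messenger RNA: Cox2 at 0.11, Cytb at 0.08 and Atpase6 at 0.04. RNA levels do not show how much protein was made.

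In the genome the members lay on 17 chromosomes. A protein-coding neighbour on the opposite strand started within 1000 bases, head to head, for 22 of 76 members (28.9%), compared with 10.9% of 13389 tested protein-coding genes. The 21 tested partners had a median log2 fold change of 0.0052, near that of all genes. Only Ndufs6, a complex I gene paired with Mrpl36 (0.33 beside 0.21), and Ighmbp2, paired with Mrpl21 (0.22 beside 0.08), were above log2 0.2 among these partners, and none was below -0.2. The shares of all tested genes were 17.9% above and 16.6% below, so the partners lay under both. Among the highest members, Mrps34 stood beside Eme2 at 0.17, Mrps12 beside Sars2, the gene of a mitochondrial tRNA synthetase, at 0.18, and Mrps18c beside Helq, a DNA helicase gene, at -0.14. The spans of 13 members overlap another gene on the same strand, and 4 members, Mrpl53, Mrps2, Mrps6 and Mrps34, had counts that were not whole, so their values rest on how reads were shared.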

How the data were processed

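RNA of ventral midbrain was sequenced from 2 mouse libraries, 1 per group, from stranded TruSeq mRNA libraries read over 50 bp from both ends. The authors deposited expected counts per gene, estimated with RSEM by the pipeline RNAv9 of the sequencing company, without scaling. The submitters' processing notes name the build mm10. Aligner, versions and annotation are not given in the sources used here. Columns were assigned to groups by the library number that column name and sample title share, and 0 columns were not mapped.

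Counts were scaled by TMM in edgeR 4.0.16 (R 4.3.3), and log2 fold changes were taken after adding 0.5. Genes averaging 10 counts or more are called tested, in the sense of being given a fold change. The threshold of log2 0.2 is the one of the study's methods. Clopper-Pearson intervals (scipy 1.17.1) used counts rounded to whole numbers. With 1 library per group no p-value was computed. Lengths and gene spans came from APPRIS principal transcripts of GENCODE M21, and promoters from RefSeq (GRCm38.p6). By name are given, per subunit, the 5 highest and 5 lowest fold changes, the 3 highest and 3 lowest levels, the members with study primers, members with a special place, and the extremes of each related list. Mrpl11, Mrpl30, Mrpl38, Mrpl40, Mrps10, Mrps24, Mrp63, Lrpprc and the head-to-head pairs were named after their values were seen. Other scalings (total counts, upper quartile, DESeq2 1.42.0), minimums, pseudocounts and thresholds were tried. The code was tested on simulated data. Members and lists were chosen with earlier results of these data known.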

Additional observations from a re-analysis of the deposited data

How the results depend on the processing

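No paired analysis was possible because 1 library stands for each group, and leaving out a library would leave nothing to compare. Other scalings moved the median log2 fold change of all genes to between -0.01 and 0.02. Under the alternatives, including 2 chosen after seeing the data (short transcripts, whole counts), the median log2 fold change ran from 0.09 to 0.12 in the large and from 0.16 to 0.20 in the small subunit, and large minus small from -0.09 to -0.07. Members above log2 0.2 numbered 9 of 47 large and 9 of 29 small subunit genes with scaling by total counts (16.6% of all genes), and 13 and 14 with the upper quartile (19.1% of all genes). With total counts, the share of the large subunit was thus only slightly above that of all genes. Without members whose counts were not whole, 8 small subunit genes were above it. Mrpl9, Mrpl15, Mrps27 and Mrps18b, within 0.01 of 0, changed sign under 1 scaling each. With a threshold of log2 0.3, 5 of 47 large and 6 of 29 small subunit genes were above it, beside 11.1% of all tested genes. At that threshold the share of the large subunit did not exceed that of all tested genes. Shares of counts moved with what was summed. Without the most abundant member the large subunit took 0.115% (labelled Ctrl) and 0.123% (labelled OE), and the small subunit 0.0591% and 0.0651%. With mitochondrially encoded genes left out of the total, the values were 0.125% and 0.134%, and 0.0657% and 0.0728%. Each of these shares was higher in the library labelled OE. Depth limits single members: a typical interval reached 0.20 to either side, the size of the threshold itself. The lack of replicates limits every difference between the genotypes.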
